A study of Mus musculus with 8 samples.

Results

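The change in gene expression from day 0 to day 5 of neural differentiation was followed in mouse 46C embryonic stem cells that carry a hairpin RNA against Mef2c (shMef2c). The members were all genes present in both the day 5 and the day 0 expression tables whose 2 values in the shMef2c line averaged 1 or more. This left 12092 genes of the 17363 in both tables, while 4573 listed at both days averaged less than 1. Each gene's course is log2((day 5 value + 1)/(day 0 value + 1)), shifted so that the median of all genes is 0. A course of 1 or more in size, which is a 2-fold difference, is called higher or lower at day 5. Just inside the limit on the mean lay Kcnj14, with a mean of 1.0 and a course of -0.54, and just outside it Dmrtc1c2, with a mean of 0.995 and a course of 0.45.

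In 46C cells the neural gene Sox1 carries the coding sequence of green fluorescent protein, and all groups share this background. At day 5, RNA came from cells labelled neural progenitors, which had formed as floating aggregates in serum replacement medium without added cytokine. At day 0, RNA came from stem cells grown with serum and the cytokine LIF on irradiated embryonic fibroblasts, which were not removed from the RNA by any step that the labels give. Each day holds 4 libraries, from the shMef2c line, a line with a control hairpin (shCtrl), a line labelled LincNDIME_KO (KO), and unmodified wild type cells (WT). Groups hold 1 library each, so there is no replicate check and no p-value, and every statement describes these libraries. The labels do not say whether a line is 1 clone or how strongly the hairpin acts, and the lines are called here by their labels. In aggregates, fewer cells of a type and less RNA per cell cannot be told apart.

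When mouse stem cells leave the naive state, they switch off factors such as Klf4 and Esrrb, pass through a formative epiblast-like stage marked by Fgf5 and Otx2, and then take a germ layer fate. Nodal, Wnt and FGF signals favour the primitive streak and mesoderm. Absence of Nodal and Wnt signals favours neural fate, in which Sox1, Pax6 and the Notch target Hes5 appear before neuronal genes. Mef2c encodes a MADS-box transcription factor known for its part in muscle, heart and neuron development, and the title of the study places it downstream of the noncoding RNA NDIME in neural differentiation. The shMef2c course therefore asks which parts of this programme were seen in cells with the hairpin.

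Estimated reads assigned to genes were 25996204 to 26834802 per library at day 5 and 20312032 to 20883674 at day 0. Day 5 levels are FPKM and day 0 levels are RPKM, deposited separately in tables that list different sets of genes, so the day and the table cannot be told apart for any single gene. Of 80 ribosomal protein genes, 9 were at least 4-fold lower at day 5 in all 4 lines while the median of the 80 was 1.00 in shMef2c. The difference between the shMef2c and shCtrl courses takes out what the tables do alike to a gene, and these courses share no library. The day 0 library of shMef2c also held more fibroblast RNA, with the levels of 35 fibroblast markers summing to 1673 RPKM in shMef2c, against 1111 in shCtrl, 1089 in KO and 1130 in WT. At day 5 the same sum was 238 FPKM in shMef2c, against 253 in shCtrl, 189 in KO and 265 in WT.

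The shMef2c course was shallower than that of the control hairpin line. In shMef2c cells 1127 genes were higher at day 5 (9.32% of genes) and 1122 were lower (9.28%), which is 18.6% in either direction. The shares of 9.32% and 9.28% are the background for all counts of list members higher or lower in shMef2c. In shCtrl cells 1848 were higher and 1838 lower, 30.3% in either direction, and 19.7% passed the same threshold in KO cells (10% higher and 9.63% lower) and 29.9% in WT cells. The standard deviation of the course over genes was 0.92 in shMef2c, 1.17 in shCtrl, 0.94 in KO and 1.13 in WT, on the log2 scale. With the day 0 library of shCtrl as the starting point, 1198 genes were higher and 1067 lower in shMef2c cells at day 5.

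Genes chosen by the WT course, which shares no library with the other lines, give the same picture. The 1828 genes that were higher at day 5 in WT had a median course of 0.94 in shMef2c, against 1.45 in shCtrl and 1.00 in KO. Of these genes 46.1% passed 2-fold in shMef2c, against 76.4% in shCtrl and 50.3% in KO. The 1746 genes that were lower in WT had a median of -0.99 in shMef2c, against -1.50 in shCtrl and -1.04 in KO. Almost none of them moved the other way in shMef2c, with 4 of the genes higher in WT lower past 2-fold and 4 of the genes lower in WT higher. Of the genes past 2-fold in shMef2c, 573 of 1127 that were higher (50.8%) and 722 of 1122 that were lower (64.3%) passed in the same direction in all 4 lines.

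**Figure D1:**
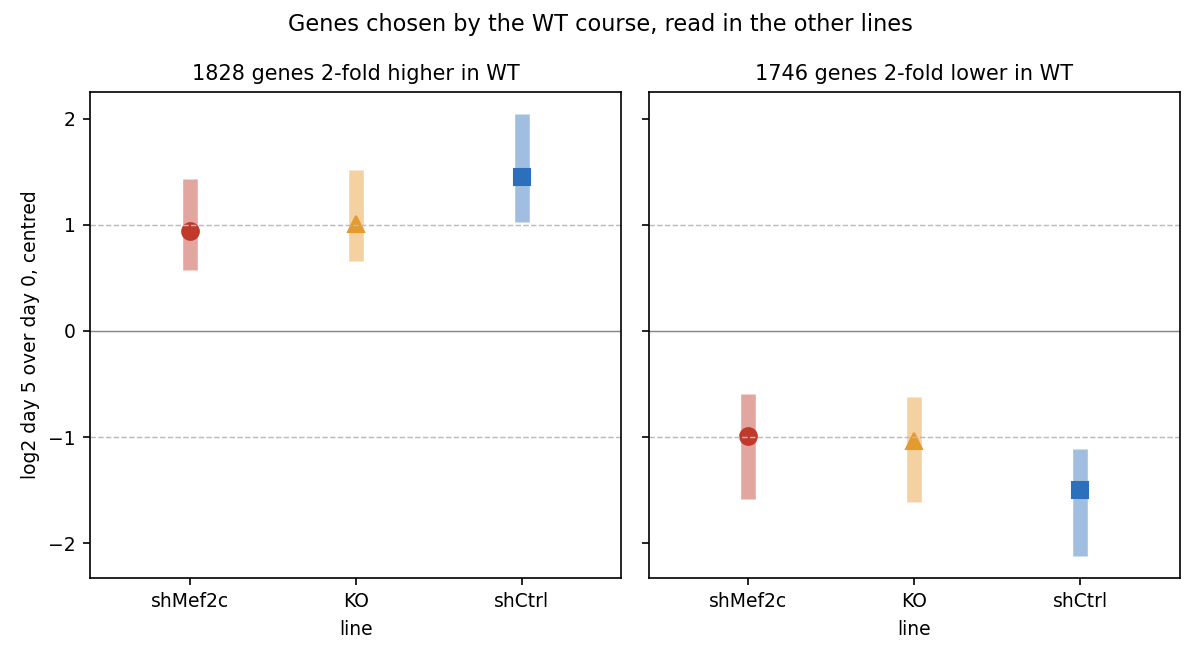
Course (log2 day 5 over day 0, centred) of the 1828 genes higher and the 1746 genes lower in WT at day 5, read in the shMef2c, KO and shCtrl lines; symbols are medians, bars run from the lower to the upper quartile over genes, and dashed lines mark 2-fold. Medians in shMef2c are 0.94 and -0.99, closer to 0 than those of shCtrl at 1.45 and -1.50.

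Across the 12504 genes with a mean of 1 or more in either hairpin line, the shMef2c course exceeded the shCtrl course 2-fold or more for 565 genes (4.52%) and fell short of it by as much for 606 (4.85%), together 9.37%. Without centring of the courses the split was 449 above and 775 below. The share between the KO and WT courses was 8.59%, and that between the shCtrl and WT courses 3.03%. Read by calls, 987 genes were higher in shCtrl without passing 2-fold in shMef2c and 944 were lower in shCtrl without passing. In the other direction, 283 genes were higher and 159 lower in shMef2c without passing in shCtrl. Opposite calls were found for 4 genes, 3 of them higher in shMef2c. They are Lefty1, the testis factor gene Dmrt1, the uncharacterised LOC106029237, and Rgs4, a regulator of G-protein signalling that was lower in shMef2c, and Dmrt1, LOC106029237 and Rgs4 were named after their values were seen.

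**Figure D2:**
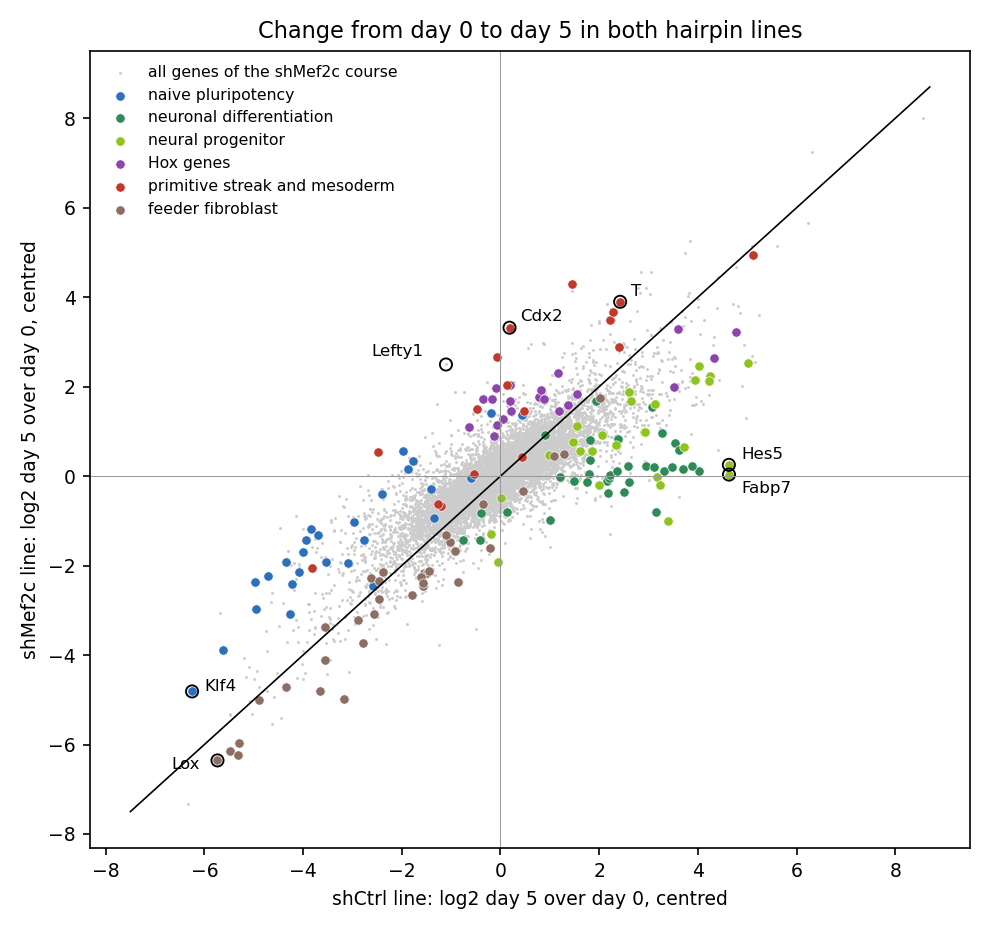
Course in the shMef2c line (vertical axis) against the shCtrl line (horizontal axis), both log2 day 5 over day 0, centred, 1 point per gene, with members of 6 gene lists coloured, 7 genes ringed and the line of equality drawn. Naive pluripotency genes lie above the line on the left, neural progenitor and neuronal genes below it on the right, most Hox and primitive streak genes above it, and Lefty1 at 2.50 in shMef2c and -1.10 in shCtrl.

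Mef2c itself was scarce and did not pass the limit on the mean in any line. It stood at 0.12 FPKM at day 5 and 0.37 RPKM at day 0 in shMef2c cells, against 0.50 and 0.16 in shCtrl, 0.10 and 0.24 in KO and 0.45 and 0.23 in WT. In the shMef2c libraries this rests on 20 estimated reads at day 5 and 44 at day 0, and its share of reads at day 5 was 0.379 of that at day 0 (exact 95% interval 0.212 to 0.657, counting error only). In shCtrl the same ratio was 3.50 (2.13 to 6.03). The share was thus lower at day 5 than at day 0 in shMef2c cells and higher in shCtrl cells. At day 0 the library labelled shMef2c held more Mef2c than the shCtrl library, which goes against its label at that day, while at day 5 it held less.

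The related factors Mef2a and Mef2d and the class IIa deacetylases, which bind MEF2 proteins and repress their targets, gave courses within 2-fold. Mef2a stood at 4.56 FPKM at day 5 and 6.18 RPKM at day 0 in shMef2c cells, against 6.76 and 5.08 in shCtrl, 5.24 and 5.40 in KO and 5.57 and 5.03 in WT, and its course was -0.33 in shMef2c cells, against 0.28 in shCtrl cells. Mef2d had 6.95 FPKM at day 5 and 10.3 RPKM at day 0 in shMef2c, with courses of -0.47 in shMef2c, -0.75 in shCtrl, -0.24 in KO and -0.87 in WT. Mef2b, at 0.42 FPKM at day 5 and 0.88 RPKM at day 0 in shMef2c, did not pass the limit on the mean. Of 8 genes in this list 5 passed it, and their median course was -0.25 in shMef2c, 0.28 in shCtrl, -0.13 in KO and 0.10 in WT. The deacetylase gene Hdac9 stood at 1.15 FPKM at day 5 and 0.77 RPKM at day 0 in shMef2c cells, against 2.69 and 0.57 in shCtrl, 1.69 and 0.41 in KO and 2.97 and 0.35 in WT. It was higher at day 5 past 2-fold in shCtrl and WT, and its shMef2c course was 0.32.

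The naive pluripotency genes stayed closer to their day 0 levels in shMef2c cells than in shCtrl cells. All 27 listed genes passed the limit on the mean. In shMef2c 18 were lower and 2 higher at day 5, against 24 lower and 0 higher in shCtrl. The median course was -1.44 in shMef2c, -3.54 in shCtrl, -1.79 in KO and -2.61 in WT, beside 0 over all genes by construction. For 23 of the 27 the shMef2c course lay 2-fold or more above the shCtrl course (background 4.52%), and for the other members the courses were within 2-fold. Pou5f1, which encodes the core factor OCT4, stood at 433 FPKM at day 5 and 586 RPKM at day 0 in shMef2c cells, against 131 and 659 in shCtrl, 284 and 551 in KO and 182 and 542 in WT. Its day 5 level was highest in shMef2c and lowest in shCtrl, and its course was -0.40 in shMef2c, -2.40 in shCtrl, -0.97 in KO and -1.59 in WT.

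Zfp42, the gene of the stem cell marker REX1, stood at 129 FPKM at day 5 and 359.9 RPKM at day 0 in shMef2c cells, against 24.1 and 367 in shCtrl, 106 and 405 in KO and 36.9 and 400.1 in WT. The day 0 levels lay close together and the day 5 levels did not, with shMef2c highest and shCtrl lowest. Dppa5a, which encodes a KH-domain protein of pluripotent cells, stood at 1642 FPKM at day 5 and 1133 RPKM at day 0 in shMef2c cells, against 295 and 1107 in shCtrl, 1356 and 1314 in KO and 454 and 891 in WT. It was within 2-fold of its day 0 level in shMef2c and KO and was lower in shCtrl past 2-fold. Tdgf1, the gene of the Nodal co-receptor Cripto, had 69.7 FPKM at day 5 and 372 RPKM at day 0 in shMef2c, with courses of -2.37 in shMef2c, -4.98 in shCtrl, -3.16 in KO and -3.79 in WT. Dppa2, a factor that primes early embryonic genes in stem cells, had courses of -1.19 in shMef2c, -3.83 in shCtrl, -0.73 in KO and -2.39 in WT.

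Other members were much lower at day 5 in every line. Klf4, a LIF-dependent factor of the naive network, stood at 4.59 FPKM at day 5 and 160.0 RPKM at day 0 in shMef2c cells, against 1.02 and 145 in shCtrl, 3.95 and 122 in KO and 1.85 and 99.4 in WT. Tbx3, a T-box factor of the same network, had courses of -3.88 in shMef2c, -5.63 in shCtrl, -4.14 in KO and -5.06 in WT. Nanog, the homeobox factor that gates the naive state, stood at 148 FPKM at day 5 and 578 RPKM at day 0 in shMef2c cells, against 36.7 and 416 in shCtrl, 117 and 528 in KO and 47.0 and 369.9 in WT. It was lower in all lines, least so in shMef2c. Sox2, which stem cells and neural progenitors both use, had courses of -0.95 in shMef2c, -1.36 in shCtrl, -1.19 in KO and -1.34 in WT. Lin28a, an RNA-binding repressor of let-7 processing, and Dppa3, the maternal factor STELLA, were the members higher in shMef2c, with courses of 1.38 and 1.42. In shCtrl their courses were 0.43 and -0.19.

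To show the start region of a gene of this group, the 250 bases before the RefSeq start of Zfp42 are given (GRCm38.p6, chr8:43307010-43307259, minus strand), with capitals marking the octamer ATTTGCAT, the sequence that OCT factors read.
Zfp42: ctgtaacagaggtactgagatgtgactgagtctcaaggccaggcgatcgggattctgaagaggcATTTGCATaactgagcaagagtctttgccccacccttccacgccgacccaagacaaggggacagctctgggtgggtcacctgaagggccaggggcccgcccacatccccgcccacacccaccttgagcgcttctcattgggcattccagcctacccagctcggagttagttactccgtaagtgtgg
The octamer was searched on both strands, overlaps with other motifs aside, and starts 186 bases before the gene start. It was found in 1.60% of 32851 RefSeq promoter windows of this length, and among the 27 listed genes 18 had a window, of which those of Zfp42 and Zfp296 held it. A match describes letters in a window and is not a measured binding site.

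**Figure D3:**
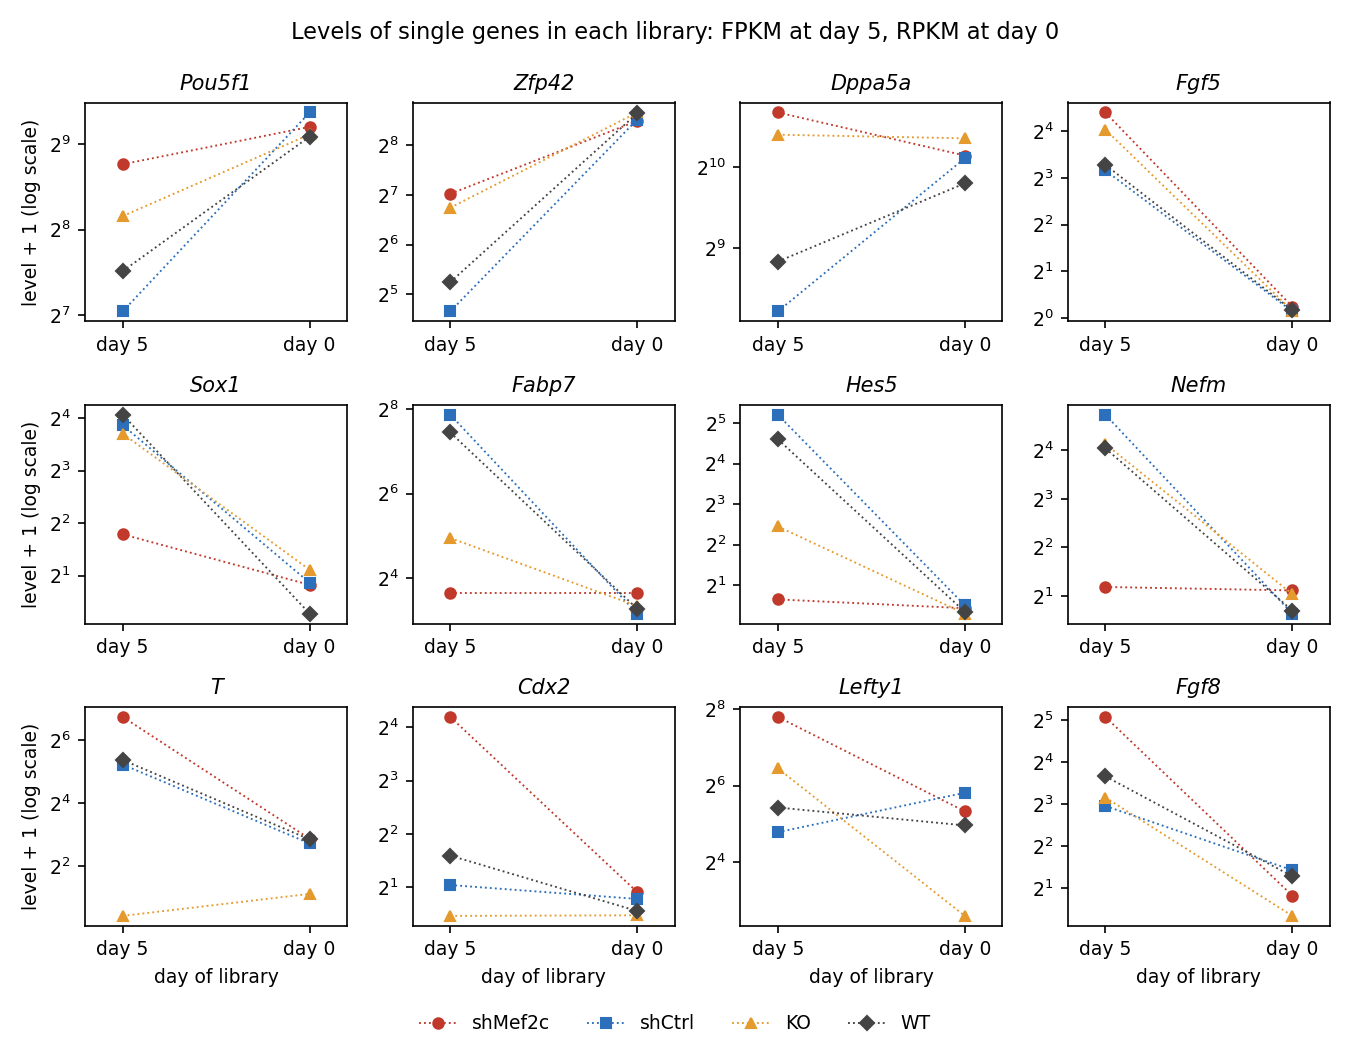
Levels plus 1 of 12 genes on log axes, in FPKM at day 5 (left) and RPKM at day 0 (right), 1 symbol per library, with dotted lines joining the libraries of a line. At day 5 the shMef2c library is highest for Pou5f1, Zfp42, Dppa5a, Fgf5, T, Cdx2, Lefty1 and Fgf8, and lowest for Sox1, Fabp7, Hes5 and Nefm.

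Genes of the formative and primed epiblast were on balance higher at day 5 in shMef2c cells and in the other lines. Of 21 listed genes 20 were in both tables and passed, 11 of them higher and 1 lower at day 5, and the median course was 1.39 in shMef2c, 1.07 in shCtrl, 1.81 in KO and 1.30 in WT. Fgf5, the growth factor gene that marks the epiblast, stood at 20.2 FPKM at day 5 and 0.18 RPKM at day 0 in shMef2c cells, against 7.95 and 0.10 in shCtrl, 15.4 and 0.11 in KO and 8.72 and 0.12 in WT. It was near 0 at day 0 in every library and highest at day 5 in shMef2c. Otx2, a homeobox gene of the formative stage and the anterior embryo, stood at 24.4 FPKM at day 5 and 1.01 RPKM at day 0 in shMef2c cells, against 35.0 and 4.02 in shCtrl, 37.6 and 6.80 in KO and 18.2 and 4.80 in WT. Its shMef2c course of 3.69 was the highest of the lines,. Dnmt3l, the cofactor of de novo DNA methylation, stood at 90.7 FPKM at day 5 and 90.7 RPKM at day 0 in shMef2c cells, against 12.5 and 81.7 in shCtrl, 60.2 and 30.8 in KO and 31.5 and 53.2 in WT, so that it was within 2-fold of day 0 in shMef2c and lower past 2-fold in shCtrl. Etv4, a target gene of FGF signalling, had courses of 0.14 in shMef2c, -1.67 in shCtrl, -2.07 in KO and -0.53 in WT. Sox3, shared with neural progenitors, had a smaller course than in the control, with 2.13 in shMef2c and 4.23 in shCtrl.

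The neural progenitor genes differed the other way. Of 30 listed genes 29 were in both tables and 21 passed the limit on the mean in shMef2c, of which 9 were higher and 2 lower. Since a gene that stays near 0 at both days cannot pass, the passing genes are not the whole list, and Hes5, Pax6, Pax3, Zic1, Pou3f2 and Pou3f3 are among the 8 that did not pass. With a mean of 1 or more in either hairpin line required instead, 27 genes could be compared. Of these the shMef2c course lay 2-fold or more below the shCtrl course for 21, against a background of 4.85%, and above it for 0. Genes that did not pass in shMef2c entered the 27 only through shCtrl, so this count is a description. Over the 21 genes that passed in shMef2c, the median course was 1.00 in shMef2c, 2.64 in shCtrl, 2.03 in KO and 2.65 in WT. Over all 29 genes in both tables, with no limit on the mean, the median course was 0.66 in shMef2c, 2.64 in shCtrl, 2.03 in KO and 2.65 in WT.

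Sox1, an early gene of the neural plate and the site of the 46C reporter, stood at 2.45 FPKM at day 5 and 0.77 RPKM at day 0 in shMef2c cells, against 13.6 and 0.82 in shCtrl, 12.1 and 1.16 in KO and 15.8 and 0.21 in WT. Its day 5 level in shMef2c was the lowest of the lines and its course of 1.00 lay near the threshold. Fabp7, a fatty acid binding protein gene of radial glia, had the lowest difference of all named genes, -4.60, and stood at 11.6 FPKM at day 5 and 11.6 RPKM at day 0 in shMef2c cells, against 233 and 7.95 in shCtrl, 29.9 and 9.14 in KO and 174 and 8.69 in WT. Its level was the same at both days in shMef2c and much higher at day 5 in the other lines. Pax6, a homeobox gene of the neural tube, stood at 0.21 FPKM at day 5 and 0.26 RPKM at day 0 in shMef2c cells, against 12.3 and 0.41 in shCtrl, 8.15 and 0.35 in KO and 12.0 and 0.41 in WT. Nkx6-2, a homeobox gene of the ventral neural tube, stood at 3.54 FPKM at day 5 and 8.26 RPKM at day 0 in shMef2c cells, against 68.0 and 5.22 in shCtrl, 14.7 and 2.59 in KO and 54.2 and 3.71 in WT, with a course of -0.99 in shMef2c, just short of 2-fold, and higher at day 5 in the other lines.

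Some progenitor genes were gained in shMef2c but less than in shCtrl. Nkx6-1, another ventral homeobox gene, had 5.12 FPKM at day 5 and 0.08 RPKM at day 0 in shMef2c, with courses of 2.54 in shMef2c, 5.01 in shCtrl, 2.66 in KO and 4.81 in WT. Prom1, which encodes the membrane protein prominin, had courses of 2.47 in shMef2c, 4.03 in shCtrl, 3.16 in KO and 3.58 in WT. Cdh2, the gene of N-cadherin, which replaces E-cadherin in the neural plate, had courses of 1.87 in shMef2c, 2.60 in shCtrl, 2.22 in KO and 2.65 in WT. Vim, which encodes the intermediate filament vimentin, was lower in shMef2c at -1.91 and not past 2-fold in shCtrl at -0.05. Vim is also made by fibroblasts, and how far the fibroblast RNA at day 0 enters this value was not tested.

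Notch signalling keeps neural progenitors from differentiating and acts through the DNA-binding factor RBPJ. Of 28 listed genes 23 passed in shMef2c, with 6 higher and 2 lower and a median course of 0.06 in shMef2c, 0.24 in shCtrl, 0.33 in KO and 0.38 in WT. Of 26 that could be compared, 7 had a shMef2c course 2-fold or more below that of shCtrl (4.85% of all genes) and 2 had one above (4.52%). Among the ligands, Dll1 had courses of 1.54 in shMef2c, 3.07 in shCtrl, 2.62 in KO and 2.81 in WT and Dll3 had 1.67 in shMef2c, 1.93 in shCtrl, 1.84 in KO and 1.55 in WT. Lfng, which encodes a glycosyltransferase that modifies Notch receptors, stood at 4.90 FPKM at day 5 and 2.32 RPKM at day 0 in shMef2c cells, against 17.6 and 1.75 in shCtrl, 5.14 and 0.28 in KO and 18.2 and 1.68 in WT. Hes5, the target gene that represses neuronal genes, stood at 0.57 FPKM at day 5 and 0.35 RPKM at day 0 in shMef2c cells, against 36.0 and 0.42 in shCtrl, 4.47 and 0.23 in KO and 23.3 and 0.27 in WT. It stayed under 1 in shMef2c at both days, and its difference from the shCtrl course was -4.38. Nrarp, a target that dampens the pathway, had courses of 0.29 in shMef2c, 2.91 in shCtrl, 1.78 in KO and 3.04 in WT, while Hes1, a target also used outside neural cells, had -0.78 in shMef2c, -0.63 in shCtrl, -1.46 in KO and -0.42 in WT. The receptor gene Notch1 had courses of -0.50 in shMef2c, 0.01 in shCtrl, -0.15 in KO and 0.28 in WT.

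As start regions of a target and a modifier of this pathway whose courses lay lower in shMef2c than in shCtrl past 2-fold, the windows of Hes5 (GRCm38.p6, chr4:154960673-154960922, plus strand) and Lfng (chr5:140607091-140607340, plus strand) from RefSeq are given, with capitals marking the core TGGGAA of RBPJ sites or its reverse complement TTCCCA.
Hes5: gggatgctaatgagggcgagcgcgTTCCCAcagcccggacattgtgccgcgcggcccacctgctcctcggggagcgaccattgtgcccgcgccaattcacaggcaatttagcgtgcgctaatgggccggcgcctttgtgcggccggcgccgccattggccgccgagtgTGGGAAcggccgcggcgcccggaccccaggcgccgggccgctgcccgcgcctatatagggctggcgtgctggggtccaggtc
Lfng: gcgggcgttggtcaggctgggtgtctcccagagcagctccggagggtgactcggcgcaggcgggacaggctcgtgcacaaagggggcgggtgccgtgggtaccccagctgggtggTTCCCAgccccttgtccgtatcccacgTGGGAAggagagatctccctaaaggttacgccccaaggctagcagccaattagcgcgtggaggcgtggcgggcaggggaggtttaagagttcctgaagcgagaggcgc
Each window holds 2 matches, with the Hes5 match nearest to the start beginning 82 bases before it and that of Lfng 108 bases before it. The 6-letter core is common, since 21.6% of all windows hold it on either strand. Of the 28 listed genes 22 had a window and 7 had a match.

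Neuronal genes were close to their day 0 levels in shMef2c cells. Of 36 listed genes 18 passed in shMef2c, with 3 higher and 2 lower, and the median course was -0.01 in shMef2c, 2.17 in shCtrl, 1.83 in KO and 1.80 in WT. In shCtrl 30 of the listed genes were higher at day 5, beside 15.2% of all genes in that line. Over all 36 genes in both tables, with no limit on the mean, the median course was 0.11 in shMef2c and 2.29 in shCtrl. Of the 35 that could be compared between the hairpin lines, 28 had a shMef2c course 2-fold or more below that of shCtrl (background 4.85%). For 0 of them it lay above by as much (4.52%). Genes that did not pass in shMef2c entered the 35 only through shCtrl, so this count is a description. Nefm, the gene of the medium neurofilament chain, stood at 1.27 FPKM at day 5 and 1.16 RPKM at day 0 in shMef2c cells, against 25.6 and 0.55 in shCtrl, 16.5 and 1.05 in KO and 15.5 and 0.62 in WT. Nefl, the light chain, stood at 7.59 FPKM at day 5 and 14.3 RPKM at day 0 in shMef2c cells, against 94.4 and 9.16 in shCtrl, 19.3 and 7.58 in KO and 46.8 and 9.74 in WT. Both neurofilament genes were higher at day 5 past 2-fold in shCtrl, KO and WT and in neither case in shMef2c. Tubb3, the gene of neuronal beta-tubulin, stood at 44.5 FPKM at day 5 and 90.8 RPKM at day 0 in shMef2c cells, against 148 and 69.7 in shCtrl, 148 and 50.5 in KO and 109 and 48.1 in WT, with -0.98 in shMef2c and courses of 1.00 or more in the other lines.

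Several proneural and early postmitotic factors were near 0 in shMef2c at day 5. Neurod4, a proneural basic helix-loop-helix factor, stood at 0.17 FPKM at day 5 and 0.03 RPKM at day 0 in shMef2c cells, against 14.6 and 0.00 in shCtrl, 1.53 and 0.00 in KO and 12.5 and 0.00 in WT. Insm1, a zinc finger factor of newly born neurons, stood at 0.28 FPKM at day 5 and 0.13 RPKM at day 0 in shMef2c cells, against 12.0 and 0.10 in shCtrl, 4.02 and 0.02 in KO and 9.51 and 0.06 in WT. In both genes the day 5 level of shMef2c lay below that of every other line. Elavl4, which encodes a neuronal RNA-binding protein, had courses of 0.74 in shMef2c, 3.53 in shCtrl, 1.91 in KO and 2.66 in WT. Lhx1, also listed with the streak genes because it is used in the node and axial mesoderm, was an exception, with courses of 2.89 in shMef2c, 2.41 in shCtrl, 0.90 in KO and 1.99 in WT. Ina, the gene of alpha-internexin, had close courses in the hairpin lines, at 0.91 in shMef2c and 0.90 in shCtrl.

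Most regional identity genes of the brain also had lower courses in shMef2c than in shCtrl. Nr2f1, which encodes a nuclear receptor of the forebrain and hindbrain, stood at 1.43 FPKM at day 5 and 0.65 RPKM at day 0 in shMef2c cells, against 35.1 and 0.61 in shCtrl, 13.4 and 0.73 in KO and 42.0 and 0.65 in WT. Ly6h, a brain-enriched membrane protein gene, had 2.97 FPKM at day 5 and 0.66 RPKM at day 0 in shMef2c and a difference from the shCtrl course of -3.69. Of 18 midbrain and hindbrain genes 13 passed in shMef2c, 3 higher and 1 lower, with a median course of 0.42, against 1.14 in shCtrl. The exceptions, with a shMef2c course above the shCtrl course past 2-fold, were Fgf8 and Fgf17, which are also streak genes.

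Of 7 forebrain and anterior genes that could be compared, 5 had a shMef2c course 2-fold or more below that of shCtrl (background 4.85%). For 0 of them it lay above by as much. Most of the 7 passed the limit on the mean only through shCtrl, so this count is a description. The median difference from shCtrl was -1.16 over all 17 listed genes with no such limit. With a mean of 5 or more required it was 0.89, which is the value of Otx2 alone. Otx2 thus went the other way, with a course above that of shCtrl but within 2-fold of it. Lhx2, a forebrain and eye factor, stood at 0.31 FPKM at day 5 and 1.16 RPKM at day 0 in shMef2c cells, against 6.12 and 0.73 in shCtrl, 16.8 and 1.37 in KO and 3.38 and 0.85 in WT. Only 2 of the 17 listed genes passed the limit on the mean in shMef2c, and without that limit the median course of the list was -0.05, against 2.19 with it.

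Genes of the primitive streak and mesoderm were gained more in shMef2c cells than in shCtrl cells. Of 25 listed genes 17 passed in shMef2c, 11 higher and 1 lower, and the median course was 2.03 in shMef2c, 0.18 in shCtrl, -0.24 in KO and 0.73 in WT. Over all 25 genes in both tables, with no limit on the mean, the median course was 0.55 in shMef2c, 0.18 in shCtrl, -0.05 in KO and 0.29 in WT. The shMef2c course exceeded the shCtrl course 2-fold or more for 10 of these 17 (background 4.52%) and fell short for 0. Several members were near 0 at day 0 and could pass only through their day 5 level, so this count is a description. The median difference from shCtrl was 1.40 over these 17 and 0.66 over all 25 genes with no limit on the mean. T, the gene of the streak and notochord factor Brachyury, stood at 106 FPKM at day 5 and 6.35 RPKM at day 0 in shMef2c cells, against 36.5 and 5.63 in shCtrl, 0.35 and 1.19 in KO and 40.5 and 6.25 in WT. It was higher at day 5 in shMef2c, shCtrl and WT, and highest in shMef2c, while KO held little at either day.

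Cdx2, a caudal homeobox gene of the posterior embryo and the trophoblast, stood at 17.3 FPKM at day 5 and 0.88 RPKM at day 0 in shMef2c cells, against 1.06 and 0.72 in shCtrl, 0.38 and 0.39 in KO and 2.02 and 0.47 in WT. Its relative Cdx4 stood at 5.69 FPKM at day 5 and 0.09 RPKM at day 0 in shMef2c cells, against 0.10 and 0.09 in shCtrl, 0.02 and 0.19 in KO and 0.32 and 0.12 in WT. Both reached their highest level in shMef2c at day 5 and stayed close to their day 0 level in shCtrl and KO. Mixl1, a homeobox gene of the streak, had 5.25 FPKM at day 5 and 0.57 RPKM at day 0 in shMef2c, with courses of 2.03 in shMef2c, 0.13 in shCtrl, -0.30 in KO and 0.73 in WT. Gsc, the organiser homeobox gene goosecoid, stood at 15.1 FPKM at day 5 and 0.46 RPKM at day 0 in shMef2c cells, against 6.41 and 0.50 in shCtrl, 0.38 and 1.02 in KO and 4.83 and 0.58 in WT. Eomes, a T-box gene of the streak and endoderm, had courses of 1.51 in shMef2c, -0.47 in shCtrl, -1.12 in KO and 0.77 in WT.

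Among the listed ligands, Fgf8 stood at 32.6 FPKM at day 5 and 0.76 RPKM at day 0 in shMef2c cells, against 6.73 and 1.68 in shCtrl, 7.89 and 0.26 in KO and 11.6 and 1.42 in WT and Wnt8a had courses of 3.67 in shMef2c, 2.27 in shCtrl, 1.65 in KO and 2.94 in WT. Fgf17, a relative of Fgf8, was not past 2-fold in shMef2c at 0.55 and was lower in shCtrl at -2.48. Genes of later paraxial and lateral mesoderm were scarce. Tbx6, a paraxial mesoderm factor, stood at 1.16 FPKM at day 5 and 0.28 RPKM at day 0 in shMef2c. Mesp1, a cardiac mesoderm factor, stood at 0.51 FPKM at day 5 and 0.09 RPKM at day 0, Msgn1, of the presomitic mesoderm, at 0.77 FPKM at day 5 and 0.27 RPKM at day 0, and Kdr, the receptor gene of blood and vessel precursors, at 0.37 FPKM at day 5 and 0.42 RPKM at day 0. None of these 4 passed the limit on the mean.

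For this group the window of T is given (GRCm38.p6 RefSeq, chr17:8434173-8434422, plus strand), with capitals marking TTCAAAG, the reverse complement of the TCF/LEF core CTTTGAA that Wnt signals act through.
T: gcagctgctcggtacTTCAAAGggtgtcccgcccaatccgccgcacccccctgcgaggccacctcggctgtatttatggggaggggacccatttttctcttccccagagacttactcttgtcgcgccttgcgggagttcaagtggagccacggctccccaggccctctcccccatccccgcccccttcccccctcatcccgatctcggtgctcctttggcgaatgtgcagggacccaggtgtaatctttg
The match starts 235 bases before the gene start. The core was found on either strand in 4.46% of the windows, and of the 25 listed genes 19 had a window, of which those of T, Mesp1 and Msgn1 held it.

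The Nodal pathway held the highest differences from the shCtrl course. All 22 listed genes passed, with 5 higher and 6 lower in shMef2c. Their median course was 0.09 in shMef2c, -0.37 in shCtrl, 0.13 in KO and -0.01 in WT. For 10 genes the shMef2c course lay 2-fold or more above that of shCtrl (background 4.52%), against 0 below (4.85%). Nodal, the ligand, stood at 32.5 FPKM at day 5 and 41.8 RPKM at day 0 in shMef2c cells, against 5.38 and 37.9 in shCtrl, 17.7 and 32.2 in KO and 10.2 and 20.1 in WT. It was close to its day 0 level in shMef2c and lower past 2-fold in shCtrl. Lefty1, a secreted antagonist that Nodal itself induces, stood at 221 FPKM at day 5 and 39.3 RPKM at day 0 in shMef2c cells, against 26.6 and 55.4 in shCtrl, 86.6 and 5.09 in KO and 42.2 and 30.2 in WT. Its course was 2.50 in shMef2c, -1.10 in shCtrl, 3.83 in KO and 0.44 in WT, which is higher at day 5 in shMef2c and KO, lower in shCtrl and within 2-fold in WT. Lefty2, the neighbouring antagonist gene, stood at 65.5 FPKM at day 5 and 152 RPKM at day 0 in shMef2c cells, against 6.99 and 166 in shCtrl, 37.9 and 41.4 in KO and 12.3 and 188 in WT. It was lower in shMef2c past 2-fold but much lower in shCtrl and WT.

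Cer1, an antagonist of Nodal, BMP and Wnt made in anterior endoderm, stood at 30.3 FPKM at day 5 and 0.01 RPKM at day 0 in shMef2c cells, against 13.3 and 0.02 in shCtrl, 0.14 and 0.03 in KO and 12.6 and 0.09 in WT. It was among the highest courses of shMef2c and stayed near 0 in KO. Foxh1, the DNA-binding partner of SMAD2 and SMAD3, had courses of 0.44 in shMef2c, -0.86 in shCtrl, 0.34 in KO and -0.78 in WT. The receptor and transducer genes moved little, with Acvr1b at -0.22, Smad2 at 0.01 and Smad4 at 0.34 in shMef2c. In shCtrl the same 3 genes had -0.27, 0.17 and 0.52.

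Of 25 genes of the FGF and ERK pathway 24 passed, 6 higher and 5 lower, with a median course of 0.37 in shMef2c, -0.61 in shCtrl, 0.01 in KO and 0.16 in WT. The shMef2c course exceeded the shCtrl course 2-fold or more for 11 of 25 genes (background 4.52%) and fell short for 2 (4.85%). The feedback phosphatase gene Dusp6, which ERK activity induces, stood at 50.4 FPKM at day 5 and 11.8 RPKM at day 0 in shMef2c cells, against 18.3 and 12.3 in shCtrl, 30.9 and 9.73 in KO and 29.1 and 11.9 in WT. Il17rd, the gene of the feedback inhibitor SEF, had courses of 1.84 in shMef2c, 0.50 in shCtrl, 1.34 in KO and 1.34 in WT, and Etv5, an ETS factor downstream of FGF, had -0.87 in shMef2c, -2.69 in shCtrl, -0.89 in KO and -1.80 in WT. Fgf15, which neural tissue also makes, had 1.54 in shMef2c and 2.71 in shCtrl, below the control. Fgfr3, a receptor gene of neural progenitors, did not pass the limit on the mean in shMef2c and stood at 0.55 FPKM at day 5 and 1.36 RPKM at day 0 in shMef2c cells, against 9.83 and 0.97 in shCtrl, 3.54 and 0.78 in KO and 10.4 and 0.88 in WT.

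Among 36 Wnt pathway genes 31 passed, 14 higher and 1 lower, with a median course of 0.47 in shMef2c, 1.01 in shCtrl, 0.42 in KO and 0.78 in WT. The antagonist gene Dkk1 stood at 23.2 FPKM at day 5 and 0.60 RPKM at day 0 in shMef2c cells, against 21.8 and 0.34 in shCtrl, 8.94 and 0.55 in KO and 11.0 and 0.46 in WT, with courses of 3.96 in shMef2c and 4.01 in shCtrl. Notum, which encodes a Wnt-inactivating enzyme and is a target of the pathway, had -0.28 in shMef2c and -2.41 in shCtrl. Sp5, another target, had 1.45 in shMef2c and 0.48 in shCtrl, and Axin2, a widely used target, had 0.04 in shMef2c and -0.37 in shCtrl. Fzd3, a receptor gene of the nervous system, had 1.08 in shMef2c, 3.23 in shCtrl, 1.43 in KO and 2.97 in WT. Of the 33 genes that could be compared, 3 shMef2c courses lay above (background 4.52%) and 5 below (4.85%) those of shCtrl past 2-fold.

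BMP signalling opposes neural fate at this stage. Of 25 BMP pathway genes 22 passed, 7 higher and 3 lower, with a median course of 0.62 in shMef2c, 0.91 in shCtrl, 0.48 in KO and 0.83 in WT. Chrd, the gene of the antagonist chordin made in the organiser, stood at 11.7 FPKM at day 5 and 0.63 RPKM at day 0 in shMef2c cells, against 7.81 and 0.69 in shCtrl, 0.65 and 0.38 in KO and 6.62 and 0.70 in WT. Id2, a target gene, had courses of 1.15 in shMef2c, 2.91 in shCtrl, 2.09 in KO and 2.66 in WT, and Id1, another, had 1.03 in shMef2c, 1.91 in shCtrl, 1.18 in KO and 2.04 in WT. Both Id genes thus had smaller courses in shMef2c than in shCtrl. Grem1, an antagonist gene that fibroblasts express, had 0.12 FPKM at day 5 and 18.8 RPKM at day 0 in shMef2c and was lower in every line.

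Hox genes had the highest share of members higher at day 5 in shMef2c among the lists with 5 or more passing genes. Of 27 listed genes 21 passed, 20 of them higher and 0 lower, against a background of 9.32% and 9.28% in the same course. The median course was 1.73 in shMef2c, 0.79 in shCtrl, -0.17 in KO and 0.46 in WT. Most passing genes were below 1 RPKM at day 0, so that they passed through their day 5 level and their count is a description. The shMef2c course exceeded that of shCtrl 2-fold or more for 12 of 21 genes (background 4.52%) and fell short for 3 (4.85%). Those counts divide by position along the clusters.

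In paralogue groups 1 to 3, which mark the hindbrain, 7 of 8 genes passed and all 7 were higher in shMef2c. Their summed level was 49.6 FPKM at day 5 and 3.59 RPKM at day 0 in shMef2c, against 89.2 and 2.41 in shCtrl, 16.1 and 3.35 in KO and 117 and 1.77 in WT. Hoxb2 stood at 13.6 FPKM at day 5 and 0.61 RPKM at day 0 in shMef2c cells, against 35.6 and 0.27 in shCtrl, 6.53 and 0.21 in KO and 49.3 and 0.34 in WT. Hoxa2 had courses of 2.00 in shMef2c, 3.52 in shCtrl, 1.87 in KO and 4.27 in WT, and Hoxb3 had 2.64 in shMef2c, 4.34 in shCtrl, 1.73 in KO and 4.44 in WT. For these 3 genes the shMef2c course lay below that of shCtrl past 2-fold. Hoxb1 had 3.29 in shMef2c and 3.59 in shCtrl, within 2-fold of each other.

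In groups 7 to 9, which mark the trunk, 9 of 9 genes passed and were higher in shMef2c, and 8 of the 9 courses lay 2-fold or more above those of shCtrl. Their summed level was 44.8 FPKM at day 5 and 9.20 RPKM at day 0 in shMef2c, against 9.67 and 7.62 in shCtrl, 1.35 and 12.9 in KO and 6.00 and 4.85 in WT. The day 5 sum in shMef2c was thus the highest of the lines, whereas the day 0 sums overlapped. Hoxb9 stood at 11.7 FPKM at day 5 and 5.04 RPKM at day 0 in shMef2c cells, against 2.94 and 4.80 in shCtrl, 0.20 and 9.52 in KO and 1.98 and 3.37 in WT, Hoxa9 at 3.83 FPKM at day 5 and 0.20 RPKM at day 0 in shMef2c cells, against 0.32 and 0.09 in shCtrl, 0.00 and 0.14 in KO and 0.47 and 0.11 in WT and Hoxc8 at 5.04 FPKM at day 5 and 0.87 RPKM at day 0 in shMef2c cells, against 0.55 and 0.65 in shCtrl, 0.02 and 0.56 in KO and 0.34 and 0.35 in WT. All 3 were highest in shMef2c at day 5. When only genes with a mean of 5 or more were kept, the median difference of the whole Hox list from shCtrl was -1.56. That limit kept Hoxa2, Hoxb1, Hoxb2 and Hoxb3 of groups 1 to 3, and Hoxb9 as the only gene of groups 7 to 9. In the main setting the difference of Hoxb9 was 1.74. In groups 10 to 13, 2 of 11 genes passed and none was higher in shMef2c.

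Retinoic acid patterns the hindbrain and spinal cord and is a strong inducer of Hox genes. Of 20 genes for its synthesis, transport, receptors and breakdown 15 passed, 8 higher and 1 lower, with a median course of 1.58 in shMef2c, 0.82 in shCtrl, 0.80 in KO and 0.72 in WT. Over all 20 genes in both tables, with no limit on the mean, the median course was 0.68 in shMef2c, 0.86 in shCtrl, 0.73 in KO and 0.74 in WT. Of the 18 genes that could be compared, 4 courses lay 2-fold or more above those of shCtrl (background 4.52%) and 6 below (4.85%). Aldh1a2, which encodes the synthesising enzyme of trunk mesoderm, had 4.53 FPKM at day 5 and 0.79 RPKM at day 0 in shMef2c, with courses of 1.66 in shMef2c, 0.80 in shCtrl, -0.15 in KO and -0.46 in WT. Stra6, a retinol transporter gene, stood at 11.1 FPKM at day 5 and 0.57 RPKM at day 0 in shMef2c cells, against 2.99 and 0.38 in shCtrl, 2.60 and 0.39 in KO and 3.04 and 0.31 in WT. Cyp26a1, the gene of a retinoic acid breaking enzyme, was among the 10 highest shMef2c courses and stood at 27.7 FPKM at day 5 and 0.16 RPKM at day 0 in shMef2c cells, against 33.3 and 0.19 in shCtrl, 13.4 and 0.13 in KO and 8.67 and 0.16 in WT. Its relative Cyp26b1, used in the hindbrain, stood at 0.74 FPKM at day 5 and 0.32 RPKM at day 0 in shMef2c cells, against 21.2 and 0.21 in shCtrl, 4.87 and 0.16 in KO and 19.6 and 0.18 in WT, with a difference of -3.69. The binding protein genes Crabp1 and Crabp2, abundant in hindbrain and neural crest, had 2.68 and 2.55 in shMef2c. In shCtrl they had 5.11 and 5.17.

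Endoderm genes had similar medians in shMef2c and shCtrl. Of 30 listed genes 27 were in both tables and 16 passed, 9 higher and 2 lower, with a median course of 1.38 in shMef2c, 1.24 in shCtrl, 1.70 in KO and 0.74 in WT. Over all 27 genes in both tables, with no limit on the mean, the median course was 0.53 in shMef2c, 0.60 in shCtrl, 1.58 in KO and 0.33 in WT. Foxa2, a pioneer factor gene of the endoderm and floor plate, stood at 30.6 FPKM at day 5 and 0.05 RPKM at day 0 in shMef2c cells, against 37.4 and 0.05 in shCtrl, 6.45 and 0.07 in KO and 30.4 and 0.09 in WT, and its courses were 4.94 in shMef2c cells, against 5.12 in shCtrl cells. Sox17, of the definitive endoderm, had courses of 3.46 in shMef2c, 2.63 in shCtrl, 1.88 in KO and 1.98 in WT. Afp, the gene of alpha-fetoprotein, stood at 0.13 FPKM at day 5 and 0.02 RPKM at day 0 in shMef2c cells, against 0.36 and 0.07 in shCtrl, 23.3 and 0.00 in KO and 0.30 and 0.02 in WT, and Ttr, of transthyretin, at 0.71 FPKM at day 5 and 0.04 RPKM at day 0 in shMef2c cells, against 3.97 and 0.04 in shCtrl, 22.7 and 0.00 in KO and 0.51 and 0.00 in WT. Neither passed the limit on the mean in shMef2c, and both varied widely between the other lines at day 5. Apoa1, an apolipoprotein gene, had courses of 3.11 in shMef2c, 4.32 in shCtrl, 3.19 in KO and 1.84 in WT.

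Epithelial genes held a median course of 0.65 in shMef2c, 0.00 in shCtrl, 0.25 in KO and 0.08 in WT, with 8 of 21 passing genes higher and 3 lower in shMef2c. Over all 29 genes in both tables, with no limit on the mean, the median course was 0.26 in shMef2c, 0.00 in shCtrl, 0.01 in KO and 0.06 in WT. The keratin genes Krt8 and Krt18 had 3.50 and 3.64 in shMef2c, and 4.12 and 4.85 in shCtrl. Cdh1, the gene of E-cadherin, stood at 72.9 FPKM at day 5 and 100.1 RPKM at day 0 in shMef2c cells, against 44.9 and 87.3 in shCtrl, 60.0 and 90.2 in KO and 33.0 and 92.7 in WT, within 2-fold of day 0 in shMef2c. Grhl2, an epithelial transcription factor gene, had courses of 2.27 in shMef2c, 1.04 in shCtrl, 2.21 in KO and 0.86 in WT. Parietal endoderm and trophoblast genes had a median of -0.08 over 12 passing genes in shMef2c, against 0.43 in shCtrl.

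**Figure D4:**
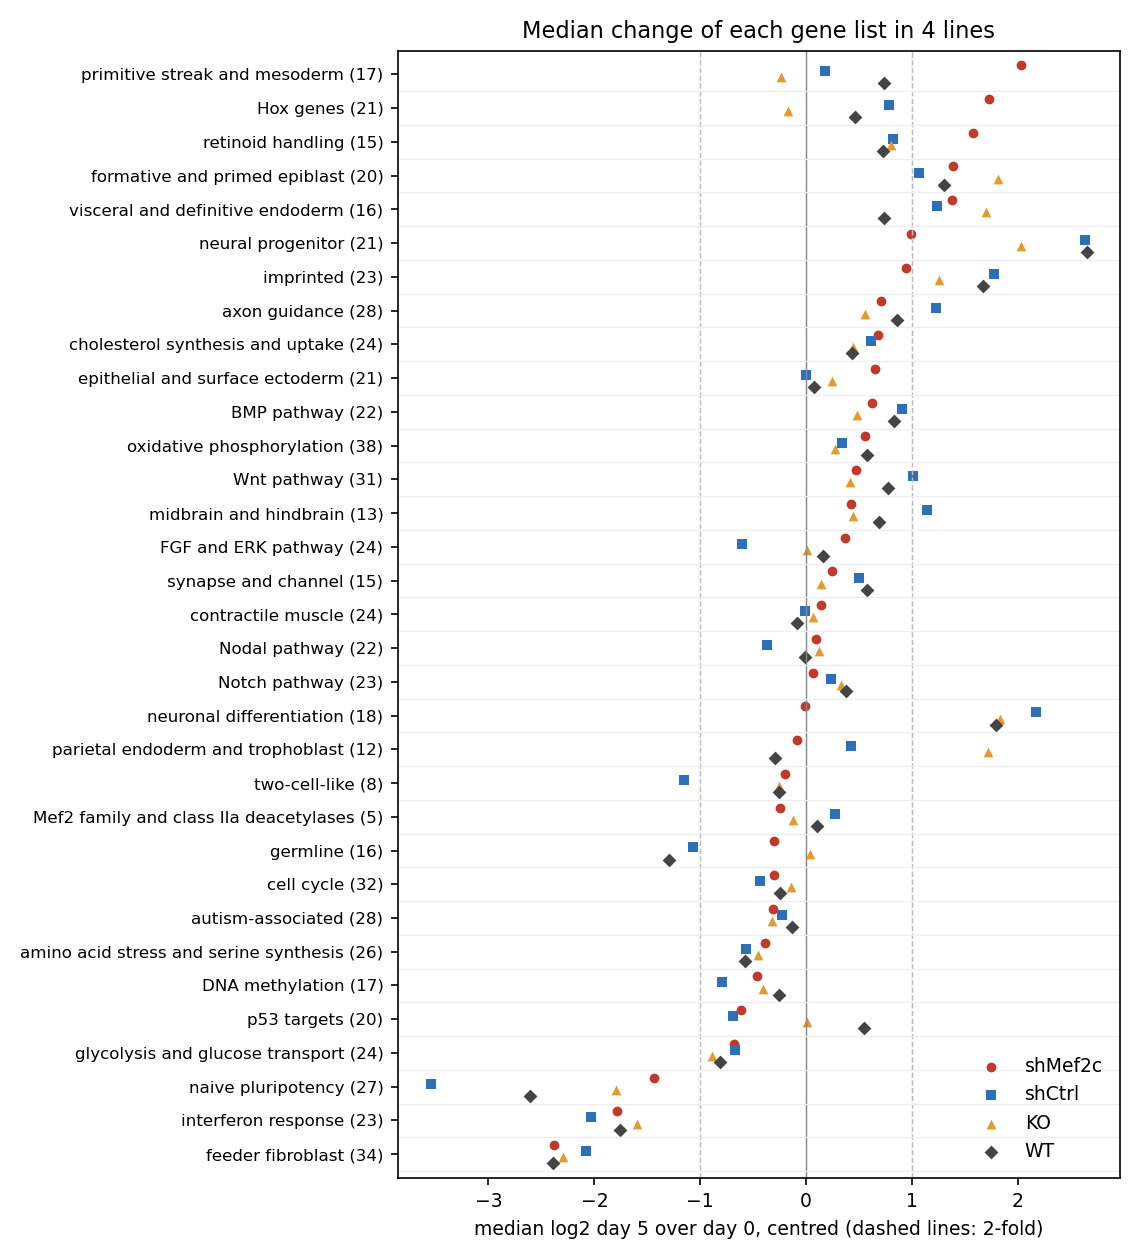
Median course (log2 day 5 over day 0, centred) of each gene list with 5 or more genes passing the limit on the mean in shMef2c (number in brackets), 1 symbol per line, ordered by the shMef2c median, with dashed lines at 2-fold. Primitive streak and mesoderm (2.03) and Hox genes (1.73) lead in shMef2c, and naive pluripotency (-1.44) lies nearer to 0 there than in shCtrl (-3.54), while over all 25 streak and mesoderm genes in both tables the shMef2c median is 0.55.

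Most of the highest courses of shMef2c also passed 2-fold in other lines. Hist1h2ad, a histone gene with near-identical copies whose values are uncertain, stood at 815 FPKM at day 5 and 2.26 RPKM at day 0 in shMef2c cells, against 1019.6 and 1.56 in shCtrl, 826 and 0.00 in KO and 1256 and 0.00 in WT. Mthfd2l, which encodes a mitochondrial folate enzyme, stood at 481 FPKM at day 5 and 2.26 RPKM at day 0 in shMef2c cells, against 278 and 2.32 in shCtrl, 387 and 1.14 in KO and 323 and 2.78 in WT. Both were far higher at day 5 in all 4 lines. The carbonic anhydrase genes Car4 and Car14 had courses of 5.65 and 5.14 in shMef2c, and 6.22 and 5.60 in shCtrl. Spink1, a trypsin inhibitor gene, stood at 54.2 FPKM at day 5 and 0.49 RPKM at day 0 in shMef2c cells, against 45.5 and 2.09 in shCtrl, 20.5 and 0.13 in KO and 18.9 and 0.73 in WT. Arg1, the gene of arginase, stood at 30.3 FPKM at day 5 and 0.36 RPKM at day 0 in shMef2c cells, against 9.53 and 0.20 in shCtrl, 0.97 and 0.24 in KO and 5.81 and 0.29 in WT, highest in shMef2c, and Nlrp4e, of a family of oocyte proteins, had courses of 5.14 in shMef2c, 5.10 in shCtrl, 1.00 in KO and 4.32 in WT.

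The lowest courses belonged to genes that were lower at day 5 than at day 0 in every line. Kpna2, a nuclear import factor gene, had 0.48 FPKM at day 5 and 243 RPKM at day 0 in shMef2c, with courses of -7.33 in shMef2c, -6.33 in shCtrl, -6.70 in KO and -7.22 in WT. Rpl10a, of the large ribosomal subunit, had 21.4 FPKM at day 5 and 913 RPKM at day 0 and courses of -5.32 in shMef2c, -5.49 in shCtrl, -5.93 in KO and -5.48 in WT, and Hist1h2ai, a further histone gene, had -5.53 in shMef2c, -4.62 in shCtrl, -6.11 in KO and -4.69 in WT. For such genes a change between days and a difference between the tables cannot be told apart. Egr1 and Fos, immediate early genes of serum and growth factor signalling, had -6.38 and -5.33 in shMef2c. In shCtrl they had -6.43 and -5.47.

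Fibroblast genes made up much of the rest of the lowest courses. Of 35 listed genes 34 passed, 29 lower and 1 higher in shMef2c, and the median course was -2.38 in shMef2c, -2.08 in shCtrl, -2.30 in KO and -2.39 in WT. Col1a1, a collagen gene of fibroblasts, stood at 0.82 FPKM at day 5 and 140.3 RPKM at day 0 in shMef2c cells, against 1.32 and 86.5 in shCtrl, 1.60 and 76.2 in KO and 1.27 and 83.6 in WT. Lox, the gene of a collagen cross-linking enzyme, stood at 0.08 FPKM at day 5 and 89.6 RPKM at day 0 in shMef2c cells, against 0.04 and 51.5 in shCtrl, 0.09 and 51.5 in KO and 0.13 and 51.6 in WT. For both, the day 0 level was highest in shMef2c and the day 5 level was near 0 in every line. Tnc, of the matrix protein tenascin, had courses of -5.40 in shMef2c, -4.46 in shCtrl, -4.12 in KO and -4.91 in WT, Bgn, of biglycan, had -5.97 in shMef2c, -5.31 in shCtrl, -4.26 in KO and -5.22 in WT, and Ccl2, a chemokine gene, had -6.14 in shMef2c, -5.48 in shCtrl, -4.81 in KO and -5.20 in WT. The part of the feeder cells in these values was not tested. In 4 of the 34 genes the shMef2c course lay 2-fold or more below that of shCtrl (background 4.85%).

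Interferon response genes were also lower at day 5, in each line by its median. All 23 genes in both tables passed, with 15 lower and 0 higher in shMef2c, and the median course was -1.79 in shMef2c, -2.03 in shCtrl, -1.60 in KO and -1.76 in WT. Isg15, a ubiquitin-like product of the response, stood at 1.72 FPKM at day 5 and 35.6 RPKM at day 0 in shMef2c cells, against 0.56 and 24.3 in shCtrl, 1.35 and 20.4 in KO and 0.77 and 31.7 in WT. Irf7, an interferon regulatory factor gene, had courses of -3.64 in shMef2c, -3.39 in shCtrl, -3.19 in KO and -3.33 in WT. Oas1a, an antiviral enzyme gene, had -2.80 in shMef2c and -4.65 in shCtrl, and was among the genes whose shMef2c course lay above all others. Irf1, which stood at 17.4 FPKM at day 5 and 8.60 RPKM at day 0 in shMef2c, had courses of 0.97 in shMef2c, -0.73 in shCtrl and -0.82 in WT, with the KO course above that of shMef2c.

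Imprinted genes, several of which control growth, had a median course of 0.94 in shMef2c, 1.77 in shCtrl, 1.25 in KO and 1.67 in WT, with 10 of 23 passing genes higher and 4 lower in shMef2c. Cdkn1c, which encodes the cell cycle inhibitor p57, stood at 2.85 FPKM at day 5 and 4.45 RPKM at day 0 in shMef2c cells, against 127 and 8.91 in shCtrl, 59.8 and 2.02 in KO and 88.2 and 4.87 in WT. It was higher at day 5 in all lines other than shMef2c, and its difference from the shCtrl course was -4.08. Igf2, the growth factor gene, had 2.00 in shMef2c, 3.80 in shCtrl, 2.93 in KO and 1.94 in WT, and Grb10, a growth inhibitor, had 2.88 in shMef2c, 0.56 in shCtrl, -0.86 in KO and 3.79 in WT, higher past 2-fold in shMef2c and WT and within it in shCtrl and KO. Nnat, a brain-enriched membrane protein gene, had 0.93 in shMef2c and 3.86 in shCtrl.

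Genes of proliferation and energy use had close medians in the hairpin lines, and their counts below stand beside 9.32% of all genes higher and 9.28% lower in shMef2c. Counts of courses differing 2-fold from shCtrl stand beside 9.37% of all genes. Of 32 cell cycle genes that passed, 0 were higher and 4 lower in shMef2c, and the median was -0.30 in shMef2c, -0.43 in shCtrl, -0.14 in KO and -0.24 in WT. Ccnd2, the cyclin gene of neural progenitors, was an exception, with 20.7 FPKM at day 5 and 17.1 RPKM at day 0 in shMef2c and courses of 0.29 in shMef2c, 2.40 in shCtrl, 1.19 in KO and 2.71 in WT. Cholesterol synthesis genes had a median of 0.68 in shMef2c, 0.61 in shCtrl, 0.45 in KO and 0.44 in WT, with 7 of 24 higher in shMef2c and 0 of 24 courses differing 2-fold from shCtrl. Idi1, an isomerase of that pathway, had courses of 2.50 in shMef2c cells, against 2.62 in shCtrl cells. Oxidative phosphorylation genes had a median of 0.56 in shMef2c, 0.34 in shCtrl, 0.28 in KO and 0.58 in WT, with 4 of 38 higher, 1 lower and 0 differing 2-fold from shCtrl.

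Glycolysis genes had a median of -0.68 in shMef2c, -0.67 in shCtrl, -0.89 in KO and -0.81 in WT. In shMef2c 2 of 24 were higher and 7 lower. The counts in this paragraph also stand beside 9.32% of all genes higher and 9.28% lower. Pfkp, which encodes a phosphofructokinase, had courses of -2.62 in shMef2c, -3.48 in shCtrl, -2.33 in KO and -3.00 in WT. Ldhb, a lactate dehydrogenase gene, stood at 462 FPKM at day 5 and 184 RPKM at day 0 in shMef2c cells, against 198 and 194 in shCtrl, 401 and 242 in KO and 199.9 and 266 in WT and was higher in shMef2c past 2-fold. Among p53 targets 6 of 20 were lower and 0 higher, and the median was -0.61 in shMef2c, -0.69 in shCtrl, 0.01 in KO and 0.55 in WT. Mdm2, the target that restrains p53, had courses of -1.75 in shMef2c and -2.05 in shCtrl. In the amino acid stress and serine synthesis list 5 of 26 were lower and 0 higher, and the median was -0.39 in shMef2c, -0.57 in shCtrl, -0.46 in KO and -0.58 in WT.

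Germline genes, which stem cells express at low levels, had a median of -0.30 in shMef2c, -1.07 in shCtrl, 0.03 in KO and -1.29 in WT. The shMef2c course lay 2-fold or more above that of shCtrl for 8 of 16 genes (background 4.52%) and below for 0 (4.85%). Sycp3, of the meiotic chromosome axis, stood at 16.4 FPKM at day 5 and 13.8 RPKM at day 0 in shMef2c cells, against 7.16 and 16.2 in shCtrl, 7.48 and 5.60 in KO and 5.63 and 16.8 in WT, and Tex19.1, a germ cell factor that restrains transposons, had courses of -0.98 in shMef2c, -2.24 in shCtrl, -0.02 in KO and -2.34 in WT. Genes of the state that resembles the early cleavage embryo had a median of -0.20 in shMef2c and -1.15 in shCtrl over 8 genes. Zscan4c, of that state, belongs to a cluster of near-identical copies whose values are uncertain, and had courses of 0.96 in shMef2c, -1.40 in shCtrl, 0.14 in KO and 0.38 in WT. Among 17 DNA methylation genes 2 were higher (background 9.32%) and 4 lower (9.28%) in shMef2c. Their median was -0.46 in shMef2c, -0.79 in shCtrl, -0.41 in KO and -0.26 in WT. The dioxygenase genes Tet1 and Tet2 had -2.19 and -2.56 in shMef2c, and -3.50 and -2.66 in shCtrl.

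Gstp2 and Hspb1, named for their differences from the shCtrl course, were lower past 2-fold in shCtrl, with smaller differences between the days in shMef2c. Gstp2, a glutathione transferase gene with close copies, stood at 26.2 FPKM at day 5 and 50.4 RPKM at day 0 in shMef2c cells, against 1.52 and 41.2 in shCtrl, 30.0 and 31.9 in KO and 5.99 and 57.6 in WT. Hspb1, a small heat shock protein gene, stood at 184 FPKM at day 5 and 429 RPKM at day 0 in shMef2c cells, against 26.3 and 416 in shCtrl, 149.5 and 352 in KO and 48.8 and 227 in WT. In both cases the day 0 levels lay within 2-fold of each other and the day 5 level of shCtrl was the lowest. Mylpf, a myosin light chain gene of fast muscle, stood at 119 FPKM at day 5 and 168 RPKM at day 0 in shMef2c cells, against 15.9 and 154 in shCtrl, 49.7 and 157 in KO and 27.1 and 134 in WT, again highest in shMef2c at day 5. The contractile muscle list as a whole had 24 of 37 genes passing, 5 higher and 4 lower, with a median of 0.15 in shMef2c, -0.01 in shCtrl, 0.06 in KO and -0.08 in WT, and Mylpf was the gene whose shMef2c course exceeded that of shCtrl past 2-fold.

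Fewer genes of later neuronal function passed the limit on the mean. Of 38 synapse and channel genes 37 were in both tables and 15 passed in shMef2c, 1 higher and 2 lower, with a median of 0.24 in shMef2c, 0.50 in shCtrl, 0.14 in KO and 0.58 in WT. Of 24 that could be compared, 8 shMef2c courses lay 2-fold or more below those of shCtrl (background 4.85%) and 0 above. Some of the 24 passed the limit on the mean only through shCtrl, so this count is a description. Syp, the gene of the vesicle protein synaptophysin, stood at 1.12 FPKM at day 5 and 0.25 RPKM at day 0 in shMef2c cells, against 7.21 and 0.39 in shCtrl, 7.19 and 0.28 in KO and 5.44 and 0.19 in WT. Of 40 autism-associated genes 28 passed, 2 higher and 2 lower, with a median of -0.31 in shMef2c, -0.23 in shCtrl, -0.33 in KO and -0.13 in WT. Of 29 that could be compared, 1 differed 2-fold from shCtrl, beside 9.37% of all genes. Ebf3, that gene, which encodes a helix-loop-helix factor of early neurons, stood at 0.25 FPKM at day 5 and 0.10 RPKM at day 0 in shMef2c cells, against 6.00 and 0.10 in shCtrl, 7.49 and 0.12 in KO and 4.20 and 0.07 in WT. Axon guidance genes had a median of 0.71 in shMef2c, 1.22 in shCtrl, 0.56 in KO and 0.86 in WT. Past 2-fold, 9 of 32 shMef2c courses lay below those of shCtrl (background 4.85%) and 1 above (4.52%). Slit1, a repulsive cue, had courses of 1.26 in shMef2c, 3.27 in shCtrl, 1.36 in KO and 3.48 in WT, and Epha2, an ephrin receptor gene of the epiblast, had -0.21 in shMef2c, -2.84 in shCtrl, -1.83 in KO and -1.27 in WT. Of 18 erythroid genes 14 were in both tables and 2 passed in shMef2c, and the embryonic globin gene Hba-x stood at 0.14 FPKM at day 5 and 0.00 RPKM at day 0 in shMef2c cells, against 11.1 and 0.00 in shCtrl, 0.34 and 0.00 in KO and 0.95 and 0.17 in WT.

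Courses that set shMef2c apart from all 3 other lines were rarer. Among 12740 genes with a mean of 1 or more in any line, the shMef2c course lay 2-fold or more above each of the others for 58 (0.455%) and below each of them for 129 (1.01%). For the shCtrl course the same counts were 33 and 68 (0.534%), for the KO course 93 and 64 and for the WT course 26 and 40. Of the 58 genes, 12 are Hox genes, out of 21 that could be compared, and 6 are streak and mesoderm genes, out of 17. Of the 129 genes, 23 are neuronal genes, out of 35, 12 neural progenitor genes, out of 28, 5 forebrain genes, out of 8, and 4 Notch pathway genes, out of 26. None of the 27 naive pluripotency genes is in either set. These sets were chosen by the difference itself and carry no test.

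Among the 58, Noto, a homeobox gene of the node and notochord, stood at 6.52 FPKM at day 5 and 0.00 RPKM at day 0 in shMef2c cells, against 1.01 and 0.03 in shCtrl, 0.02 and 0.00 in KO and 1.64 and 0.00 in WT. Nkx1-2, a homeobox gene of the posterior epiblast, stood at 13.8 FPKM at day 5 and 2.52 RPKM at day 0 in shMef2c cells, against 1.60 and 2.00 in shCtrl, 0.68 and 4.85 in KO and 3.12 and 0.93 in WT. Apela, which encodes a peptide hormone of early embryos, stood at 53.4 FPKM at day 5 and 19.3 RPKM at day 0 in shMef2c cells, against 28.3 and 33.4 in shCtrl, 38.4 and 30.2 in KO and 27.7 and 39.9 in WT. Rspo3, an enhancer of Wnt signalling, stood at 10.2 FPKM at day 5 and 0.70 RPKM at day 0 in shMef2c cells, against 2.94 and 0.54 in shCtrl, 1.15 and 0.14 in KO and 3.72 and 0.80 in WT, and Cfc1, a Nodal co-receptor gene, stood at 14.4 FPKM at day 5 and 0.09 RPKM at day 0 in shMef2c cells, against 4.15 and 0.09 in shCtrl, 1.86 and 0.05 in KO and 3.97 and 0.09 in WT. All 5 were highest in shMef2c at day 5, and they were named after their values were seen. Among the 129, Sst, the gene of the neuropeptide somatostatin, stood at 0.58 FPKM at day 5 and 0.00 RPKM at day 0 in shMef2c cells, against 10.7 and 0.00 in shCtrl, 13.0 and 0.09 in KO and 5.24 and 0.08 in WT, and Stmn4, a neuronal tubulin-binding protein gene, stood at 0.17 FPKM at day 5 and 0.84 RPKM at day 0 in shMef2c cells, against 11.2 and 0.84 in shCtrl, 2.27 and 0.62 in KO and 4.21 and 0.99 in WT. Tmsb4x, which encodes the actin-binding thymosin beta 4, stood at 276 FPKM at day 5 and 265 RPKM at day 0 in shMef2c cells, against 1263 and 227 in shCtrl, 446 and 152 in KO and 1308 and 217 in WT. These 3 were lowest in shMef2c at day 5 and were likewise named after their values were seen.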

How the data were processed

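RNA sequencing of 8 libraries was used, with groups and days taken from the labels. The FPKM values and estimated counts of day 5 were deposited by the authors as 1 file per library, and the RPKM values and estimated counts of day 0 as 1 table, per the file headers. Per the submitters' processing notes, HISAT, HISAT2, Bowtie, Bowtie2 and RSEM were used with build mm9; versions and roles are not given in the sources used here. Between 22.2% and 33.2% of the estimated counts of a library were not whole.

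The day 5 files list 21069 features and the table of day 0 lists 19011 genes, and 17363 were matched by gene ID, 17354 of which have a RefSeq entry. At day 0, 26 symbols had turned into dates and were restored by gene ID. The smallest FPKM listed is 0.01, and a gene unlisted at day 5 was left out of that course.

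Courses used a pseudocount of 1, a mean of 1 or more and a threshold of 2-fold, with Python 3.11.15, pandas 2.3.3, numpy 2.4.6 and scipy 1.17.1, and figures were drawn with matplotlib 3.10.9. A fold on this scale understates the change of low genes. The calculation was tested on simulated data. Intervals on read shares are exact (Clopper-Pearson, 95%) and cover counting error only. Alternatives were other pseudocounts, limits on the mean, thresholds, scalings (with TMM factors from edgeR 4.0.16 and size factors from DESeq2 1.42.0, in R 4.3.3), day 0 libraries and control lines.

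Named genes are Mef2c and its relatives, the 10 highest and 10 lowest courses and differences from shCtrl among genes with 50 or more estimated reads in the higher library, leaving out uncharacterised genes and genes at 0 in all libraries of a day, and up to 6 members per list with the largest values or the role the list is named for. Some genes that this rule names are not reported here. The gene lists, the rule and the comparison were chosen with earlier results of these data known. Tables of the authors' own day 5 comparisons between lines were not used here. Promoter windows come from RefSeq on GRCm38.p6, a different build from mm9, and no coordinate of the deposited files was used with them.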

Additional observations from a re-analysis of the deposited data

Results flagged for a closer look

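For 4 genes the shMef2c and shCtrl courses passed 2-fold in opposite directions. Lefty1, the Nodal antagonist gene, had a course of 2.50 in shMef2c and -1.10 in shCtrl, and it lay at 3.83 in KO and 0.44 in WT. Dmrt1, a DNA-binding factor gene of the testis, had 1.25 in shMef2c and -1.03 in shCtrl, from 14.7 FPKM at day 5 and 5.73 RPKM at day 0 in shMef2c, against 4.41 and 9.49 in shCtrl. The uncharacterised LOC106029237 had 1.61 in shMef2c and -1.29 in shCtrl, with 0.53 in KO and 0.97 in WT. Rgs4, which encodes a regulator of G-protein signalling, had -1.29 in shMef2c and 2.23 in shCtrl, and its level in shMef2c rests on 14 estimated reads at day 5. In 2 of the 4 genes, Dmrt1 and Rgs4, the shMef2c call was also opposite to that of WT, whose courses were -1.98 and 1.10. With 1 library per line and day, the difference was not tested for any of these genes.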

How the results depend on the processing

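Of the 3 counts that summarise the shMef2c course, 2249 genes passed 2-fold, 1171 genes differed 2-fold from the shCtrl course, and 9 gene lists had a median past 2-fold. The first count was 1392 for genes with a mean of 5 or more, 4813 at 1.5-fold and 504 at 4-fold. The second was 1998 with a pseudocount of 0.1, 736 for genes with a mean of 5 or more, 1990 with TMM factors, 1965 with DESeq2 size factors, 3229 at 1.5-fold and 186 at 4-fold. The third was 5 with no filter on low values. The other alternatives moved these counts by less than 1.5 times, among them 2 chosen after seeing the data, which kept genes unlisted at day 5 as 0 (2288, 1173 and 9) and left out genes whose implied lengths differ between the tables (2161, 1150 and 9). Rescaling to a common total shifted the median of all genes before centring to -0.229 on the log2 scale.

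The median course of the forebrain list, which rests on 2 passing genes, was 2.19 in the main setting, -0.0475 with no filter, -0.72 with TMM factors and -0.73 with DESeq2 size factors. For genes with a mean of 5 or more, its median difference from shCtrl was 0.89, against -1.69 in the main setting, and that of the Hox list was -1.56, against 1.09. The forebrain value at that limit is that of Otx2 alone, and the Hox value rests mostly on genes of groups 1 to 3. The median difference of the erythroid list was 0.29 against the WT course in place of shCtrl, where it was -1.01. Other limits on the mean change which list members are counted, and for the other settings the cause was not tested. No paired analysis was possible because the shMef2c line holds 1 library a day, so that its course is a single pair.

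Day 5 and day 0 values come from separate tables that list different sets of genes, so a difference between the days and one between the tables cannot be told apart for a single gene, and implied lengths differed 1.5-fold or more for 3.80% of 9022 genes with enough reads. Each group is 1 library, so counting error is known and the spread between cultures is not. In shMef2c 37 genes with a mean of 1 or more were unlisted at day 5 and gave no course. Levels near 0 rest on a few reads, and a gene that failed to appear in shMef2c cannot pass the limit on the mean there.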
